A study of Rattus norvegicus with 94 samples.

Results

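The cytosolic ribosomal proteins, the protein subunits of the ribosomes that translate mRNA in the cytoplasm, were followed in rat liver across 3 compounds and 4 times. Their members were all probe sets with a single gene symbol in the platform annotation that starts with Rpl or Rps and a digit, or with Rplp, and 2 probe sets of Rps6k kinases were left out. The rule took 62 of 8799 probe sets, which stand for 43 of the 4737 gene symbols that probe sets with a single symbol carry. Proteins of the large subunit (Rpl and Rplp) accounted for 43 probe sets and 30 symbols, and proteins of the small subunit (Rps) for 19 probe sets and 13 symbols. A further 31 ribosomal protein probe sets list several symbols and were kept apart. Mammalian genomes carry many near-identical copies of ribosomal protein genes, so a probe set may detect transcripts of more than 1 locus. This is uncertain in particular for symbols that name a copy or paralog (Rpl19l4, Rpl36al1, Rplp1l3, Rpl3l, Rps27l) or a pseudogene (Rps2-ps1, Rps4x-ps9).

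Male SD rats were given 1 dose of clofibrate at 1000 mg/kg in 0.9% saline, of DEHP, di(2-ethylhexyl) phthalate, at 20 g/kg in distilled water, or of sodium valproate (VPA) at 2000 mg/kg in distilled water, or the vehicle of that compound. Clofibrate is a lipid-lowering drug, DEHP a plasticizer and VPA an anticonvulsant. Treated rats were killed 4, 24, 48 and 168 h after the dose, and the vehicle rats analysed here at 48 and 168 h, and the labels give no age. Each group at 4 and 24 h had 3 animals, the VPA-treated groups at 48 and 168 h had 4, and each other group had 5, which makes 76 individual arrays in 18 groups beside 18 arrays of pooled RNA, 1 per group. All groups share a strain and a sex, the labels name no genetic change, and each sample is liver, in which fewer cells of a type and less RNA per cell cannot be told apart. The liver label was borne out by its markers, since all 11 hepatocyte marker genes on the array had a mean signal of at least 500 in vehicle rats.

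Each ribosome contains a large and a small subunit, each made of ribosomal RNA and a fixed set of proteins, so that cells make the proteins in matched amounts. Most mRNAs of ribosomal proteins begin with a short run of pyrimidines, the terminal oligopyrimidine (TOP) tract, through which mTOR signalling controls their translation. In liver, ribosome content moves with feeding and growth, and making ribosomes is among the larger costs of a growing hepatocyte. An array measures the amount of mRNA and not its translation.

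The bases around the annotated transcription start of 6 member genes are shown because the TOP tract lies there. They are Rpl6, called in 5 of the 12 comparisons, and, of the 11 genes called in 4, the 5 of smallest adjusted p. Each window holds 15 bases before and 15 bases from the start on, 5′ to 3′ on the gene's strand, as annotated by RefSeq on the GRCr8 build, and the windows cover the first transcribed bases of the gene. Capitals mark a run of at least 8 C or T counted within the 20 bases centred on the start.
Rpl6 (chr12:41011676-41011705, minus strand): tatttttacatcactagatggcgggtgaaa
Rpl18 (chr1:105325255-105325284, plus strand): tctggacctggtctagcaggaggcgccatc
Rps3 (chr1:163195762-163195791, minus strand): ttcctttcagcggcgcgcggcagcaagatg
Rpl11 (chr5:153560788-153560817, minus strand): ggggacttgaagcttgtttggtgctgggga
Rpl13a (chr1:104748899-104748928, minus strand): cctctTCCTTTCCTaggcggctgccgaaga
Rpl4 (chr8:73566462-73566491, plus strand): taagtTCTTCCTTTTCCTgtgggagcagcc

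Rpl13a and Rpl4 held such a run, which spanned the annotated start in Rpl4 and lay wholly before it in Rpl13a. In the other 4 windows the 20 central bases held no run of this length. The window of Rps3 begins with 8 C or T, which lie only partly within those 20 bases and are not counted. Starts were found in the promoter table for 37 of the 43 genes, and 17 of the 37 (45.9%) held a run, against 6.92% of all 33469 promoters. An annotated start can differ from the start used in liver by some bases, so a window with no run says nothing on the mRNA's own first bases. The motif CCGGAAGT, searched on both strands of the 300 bases around each start, was present in 5 of the 37 (13.5%), against 3.81% of all promoters. No match of the motif is counted as a run, since it holds purines.

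Signals are MAS 5.0 intensities, for which the authors scaled each array to a target of 1500, and a level of 1 probe set is not comparable with that of another. Of the 62 members, 57 probe sets (40 genes) reached an average signal of 500 in some group of each compound's fit and were tested, among 3616 probe sets for clofibrate, 4092 for DEHP and 4269 for VPA. The 5 left out were 1 probe set of Rpl3l, those of Rpl5 and Rplp1l3, and both of Rps2-ps1. Median signals of the arrays lay between 212 and 415, and the 62 members made up 2.55 to 4.32% of an individual array's summed signal without controls. For the Gapdh and beta-actin control probe sets the 3'/5' ratio on the log2 scale, a measure of RNA and labelling quality, averaged 1.00 to 1.77 in the groups of the clofibrate set, 0.24 to 0.42 in those of the DEHP set and 0.27 to 0.43 in those of the VPA set. Highest in that ratio were 4 clofibrate-set arrays (treated 24 h replicate 3, treated 48 h replicate 5, vehicle 48 h replicates 4 and 5), whose signals are also given to 1 decimal only. The labels do not say how the animals of a group were kept, so p-values measure the spread between these arrays, whose number limits the precision of all values.

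More ribosomal protein probe sets rose than fell 24 and 48 h after DEHP and VPA, with rises in both subunits, and no member was called 4 or 168 h after any compound. At 24 h after DEHP, 38 of 57 members rose and 0 fell, where 15.1% of all tested probe sets rose and 17.5% fell (limma, adjusted p under 0.05). At 48 h after DEHP 28 rose and 1 fell, where 12.8% of all rose and 21.1% fell. After VPA 25 rose and 2 fell at 24 h, where 20.9% of all rose and 15.6% fell. With each array centred on its median 13 rose and 4 fell at that time, and the share of all probe sets called in that fit is not given here. At 48 h after VPA 19 rose and 2 fell, where 21.3% of all rose and 18.4% fell. Clofibrate gave 1 rise at 24 h, where 5.75% of all rose and 7.74% fell, and 1 rise at 48 h, where 7.27% of all rose and 12.7% fell, both of Rpl6. Changes were small in size: over these 6 comparisons the largest rise of a called member was 0.92 on the log2 scale. In all, 45 member probe sets (34 genes) were called in at least 1 of the 12 comparisons and 12 tested ones in none.

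**Figure D1:**
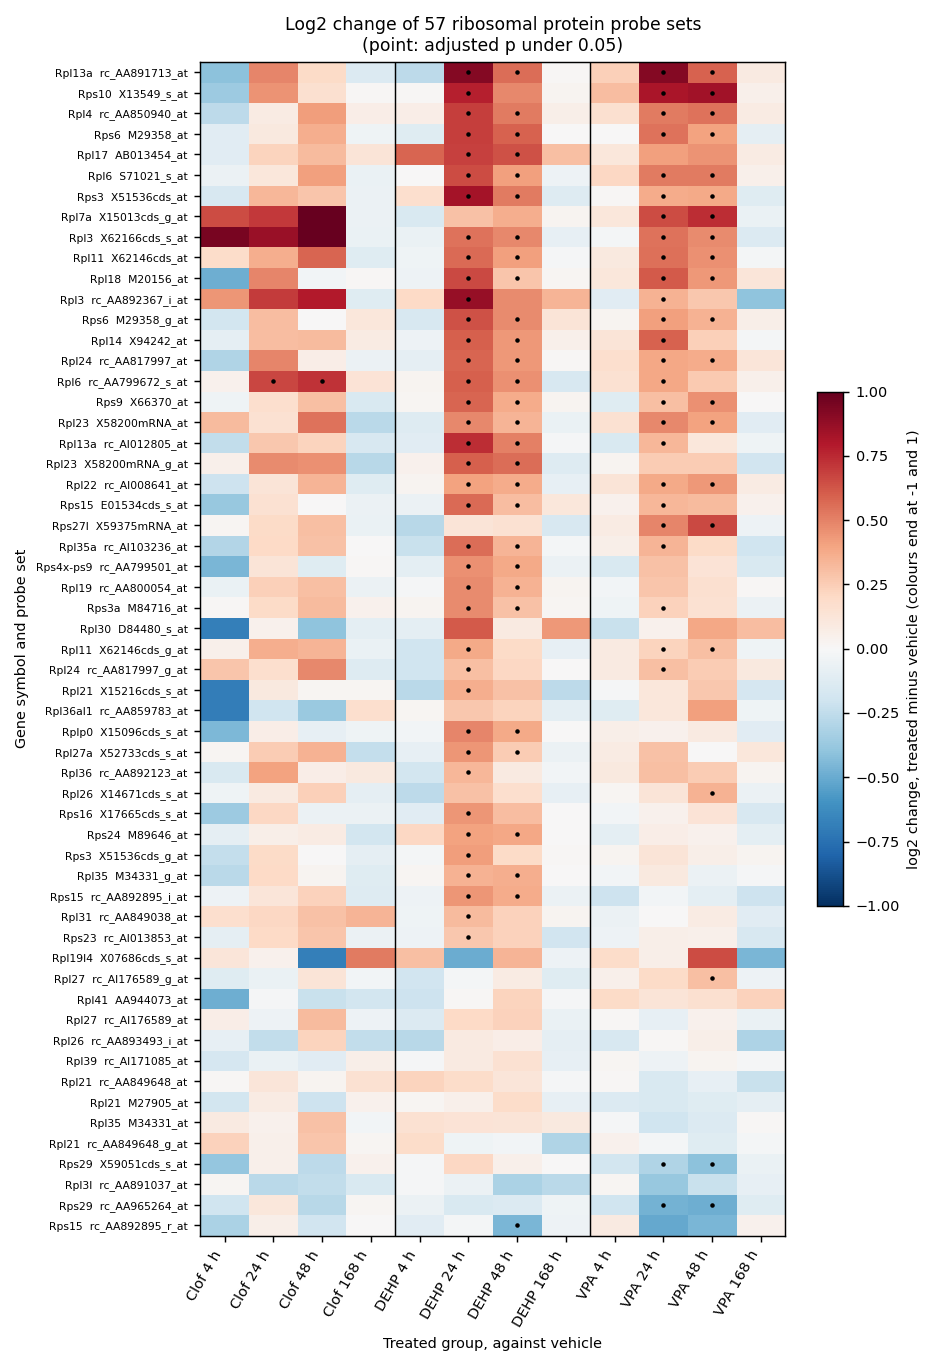
Log2 change over vehicle of each tested ribosomal protein probe set (down the page) in the 12 treated groups (across), with colours that end at -1 and 1 and points where the adjusted p was under 0.05. Each of the 45 called probe sets has a point in the 24 or 48 h columns of DEHP or VPA. Those of clofibrate hold points of Rpl6 alone, and the 4 and 168 h columns hold none.

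The median over the members is set beside that over all probe sets. Median log2 changes of the 57 members were 0.44 at 24 h and 0.31 at 48 h after DEHP, beside medians over all tested probe sets of -0.06 and -0.10. For VPA they were 0.25 and 0.25, beside 0.02 and -0.01, and for clofibrate 0.17 and 0.23, beside -0.09 and -0.12. Members are bright probe sets, and the other probe sets at or above the upper quartile of mean signal had medians of -0.10 and -0.05 for DEHP, -0.15 and -0.15 for VPA and -0.09 and -0.14 for clofibrate at 24 and 48 h. Both subunits took part: after DEHP, 25 of 40 large-subunit and 13 of 17 small-subunit probe sets rose at 24 h, and 19 and 9 at 48 h. After VPA the numbers were 17 and 8 at 24 h, and 13 and 6 at 48 h. The plot of medians and interquartile ranges shows both groups of probe sets.

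**Figure D2:**
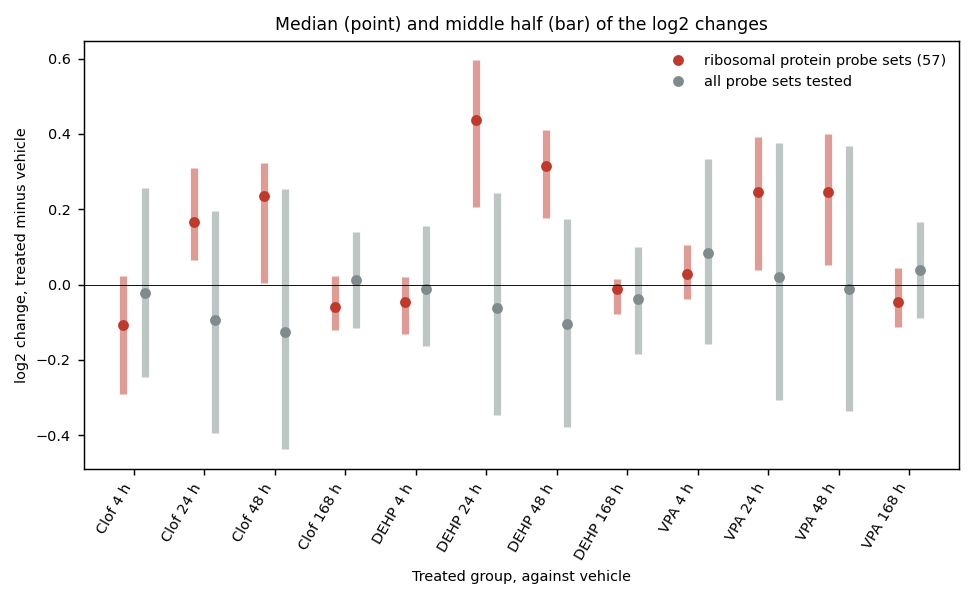
Median (point) and interquartile range (bar) of log2 changes over vehicle (y axis) of the 57 members, left, and of all tested probe sets, right, in each of the 12 comparisons (x axis). The members' median lies above that of all probe sets at 24 and 48 h for each compound, by the widest margin in DEHP-treated rats at 24 h (0.44 against -0.06).

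The level of the members on single arrays was taken as the median over the 57 of the log2 signal minus the mean of its compound's vehicle arrays. At 24 h it was 0.48, 0.54 and 0.24 in DEHP-treated rats. At 48 h it was 0.55, 0.35, -0.04, 0.35 and 0.41 in DEHP-treated rats, against -0.10, 0.04, 0.07, 0.12 and -0.04 in vehicle rats at 48 h and -0.06 to 0.05 in vehicle rats at 168 h. Replicate 3 of the DEHP 48 h group lay within the vehicle range while its other 4 arrays lay above it. In VPA-treated rats the level was 0.23, 0.23 and 0.24 at 24 h and 0.15, 0.28, 0.22 and 0.40 at 48 h, against 0.09, 0.08, -0.02, -0.01 and 0.02 in vehicle rats at 48 h, and no VPA array of 24 or 48 h fell within the vehicle range. Clofibrate-treated rats had 0.33, 0.23 and 0.04 at 24 h and 0.15, 0.22, 0.13, 0.15 and 0.12 at 48 h, against 0.04, -0.05, 0.13, -0.02 and -0.05 in vehicle rats at 48 h. In the clofibrate set the treated and vehicle ranges overlapped at both times, and the lowest treated array at 24 h was the one of high 3'/5' ratio. At 168 h the levels were -0.07 to 0.11 after clofibrate, -0.12 to 0.05 after DEHP and -0.17 to 0.04 after VPA.

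**Figure D3:**
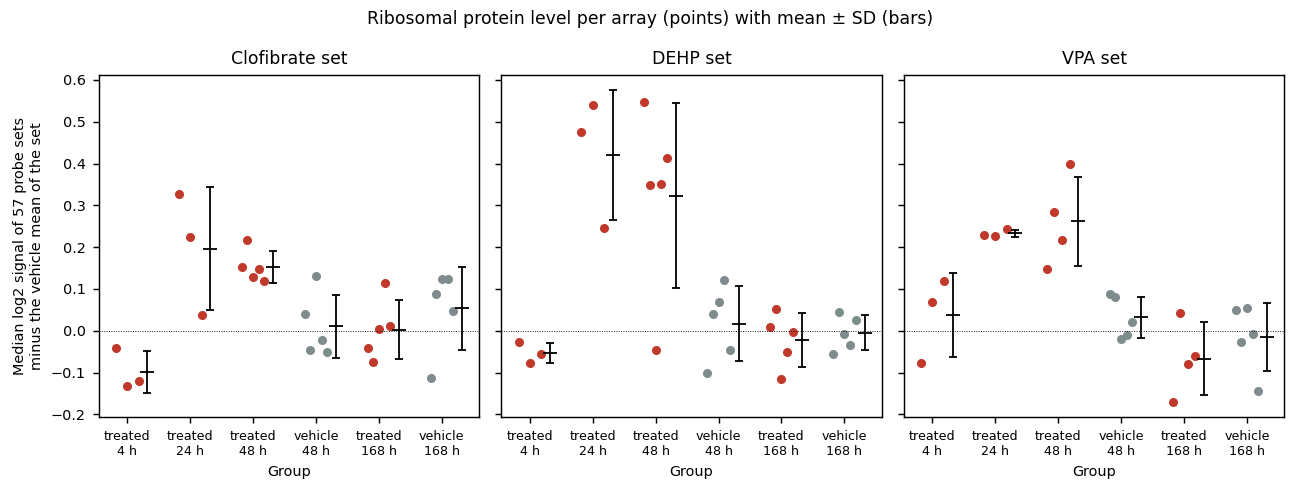
Median level of the 57 members on each of the 76 individual arrays, in log2 units relative to the vehicle arrays of the same compound, by group (points), with the mean and SD of each group (bars). Arrays of DEHP-treated rats at 24 h lie between 0.24 and 0.54, and 1 array of the DEHP 48 h group, at -0.04, lies among the vehicle arrays.

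Pooled RNA, which no test used, gave the same directions in nearly all called members. The single pooled array of each group, set against the pooled vehicle arrays, had a median member change of 0.42 at 24 h and 0.27 at 48 h after DEHP, and of 0.29 and 0.17 after VPA, without replicates. Of the members called on individual arrays, 38 of 38 and 27 of 29 had the same sign in the DEHP pools, and 27 of 27 and 20 of 21 in the VPA pools. Per the labels, pools hold RNA of each sample of a group, so they repeat the hybridisation and not the experiment. Within arrays scanned on the same day the median member change was 0.34 and 0.54 at 24 h and 0.24 and 0.43 at 48 h after DEHP, on scan days 6 and 7. After VPA it was 0.22 and 0.18 at 24 h and 0.14 and 0.40 at 48 h, on scan days 13 and 15, and after clofibrate 0.21 and 0.17 at 24 h and 0.23 and 0.22 at 48 h, on scan days 2 and 3. Each of these values rests on 1 to 3 treated arrays. A single treated array gave those of day 7 after DEHP, of day 15 after VPA, of day 13 at 24 h after VPA and of day 2 at 24 h after clofibrate. Replicates 1 and 3 of the DEHP 48 h group, scanned on days 9 and 10, and replicate 3 of the VPA 24 h group, scanned on day 16, enter none of them.

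Among DEHP-treated rats calls were spread over both subunits, and the 6 genes of the start windows are given array by array. Rpl18, a protein of the large subunit, had the smallest adjusted p at 24 h. Rpl18 gave signals of 13839.6, 13604 and 13376 in DEHP-treated rats at 24 h and of 11209, 11800.0, 8833, 11131 and 10397 at 48 h, against 8364, 9596, 8659, 9068 and 8153 in vehicle rats at 48 h and 8080.5, 9779, 8590.4, 7248 and 9138 in vehicle rats at 168 h. All 24 h arrays lay above all vehicle arrays, and at 48 h replicate 3 alone fell within the range of vehicle rats at 48 h. This is a log2 change over vehicle of 0.66 ± 0.09 at 24 h (1.58-fold, adjusted p = 3.42e-06) and 0.28 ± 0.09 at 48 h (1.21-fold, adjusted p = 0.0135). Rps3 sits at the mRNA entry channel of the small subunit. Rps3 gave signals of 12702, 14132 and 11441 in DEHP-treated rats at 24 h and of 12425, 11182, 7626, 11348 and 10776 at 48 h, against 6656, 7274, 8371, 7682 and 6783 in vehicle rats at 48 h and 7559, 7144, 5996, 7159.6 and 7023 in vehicle rats at 168 h. Again the 24 h arrays lay above all vehicle arrays and 48 h replicate 3 did not. On the log2 scale the change over vehicle was 0.83 ± 0.12 at 24 h (1.78-fold, adjusted p = 1.14e-05) and 0.52 ± 0.12 at 48 h (1.44-fold, adjusted p = 0.00133). The second Rps3 probe set, of overlapping probes, changed by 0.42 ± 0.10 (adjusted p = 0.00262) at 24 h and was not called at 48 h, with 0.19 ± 0.10 (adjusted p = 0.139).

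Rpl13a, a large-subunit protein that in human monocytic cells also silences translation of some mRNAs after interferon-gamma, showed the largest log2 rise of the members at 24 h after DEHP. Rpl13a gave signals of 4588, 5585 and 3565 in DEHP-treated rats at 24 h and of 4163, 3148, 2811, 5100.4 and 3086 at 48 h, against 2853, 2225, 2362, 2355 and 2374 in vehicle rats at 48 h and 2421, 2464, 2116, 2369 and 2396 in vehicle rats at 168 h. Treated 24 h arrays lay above all vehicle arrays, and at 48 h replicate 3 was just under the highest vehicle array. The log2 change over vehicle was 0.92 ± 0.15 at 24 h (1.89-fold, adjusted p = 2.93e-05) and 0.56 ± 0.14 at 48 h (1.47-fold, adjusted p = 0.00333). Its second probe set rose too, by 0.74 ± 0.14 (adjusted p = 0.000146) and 0.50 ± 0.13 (adjusted p = 0.00455). Rpl4 lines the tunnel through which the new protein leaves the ribosome. Rpl4 gave signals of 14789, 15116 and 11806 in DEHP-treated rats at 24 h and of 13626, 12430.0, 9897, 11828 and 11028 at 48 h, against 7072, 8352, 8648, 8611 and 8165 in vehicle rats at 48 h and 8907, 8831, 7869.7, 9504 and 9897 in vehicle rats at 168 h. No DEHP array of 24 h overlapped the vehicle arrays, and none of 48 h overlapped the vehicle arrays of 48 h. This is a log2 change over vehicle of 0.69 ± 0.11 at 24 h (1.62-fold, adjusted p = 4.45e-05) and 0.52 ± 0.11 at 48 h (1.44-fold, adjusted p = 0.000676).

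Rpl11 binds 5S ribosomal RNA together with Rpl5 and, when free of ribosomes, binds Mdm2, the ligase that degrades p53. Rpl11 gave signals of 22895, 24207 and 19381 in DEHP-treated rats at 24 h and of 25188, 21624, 16472, 20465 and 20869 at 48 h, against 14763, 15030.1, 15874, 17181 and 15332 in vehicle rats at 48 h and 13359.8, 15145, 14203, 14084 and 13645 in vehicle rats at 168 h. At 24 h all treated arrays were above all vehicle arrays, and at 48 h all but replicate 3 were above those of 48 h. On the log2 scale the change over vehicle was 0.57 ± 0.10 at 24 h (1.49-fold, adjusted p = 0.000113) and 0.41 ± 0.10 at 48 h (1.33-fold, adjusted p = 0.00228). The second Rpl11 probe set rose by 0.38 ± 0.09 (adjusted p = 0.00265) at 24 h and was not called at 48 h, with 0.19 ± 0.09 (adjusted p = 0.0975). Rpl6, another large-subunit protein, was the member called in the most comparisons, 5 of 12. Rpl6 gave signals of 11957, 13413 and 7572 in DEHP-treated rats at 24 h and of 10865, 10785, 8086, 9039.7 and 7416 at 48 h, against 6129.7, 7960.2, 6480.4, 6214 and 6491 in vehicle rats at 48 h and 6504, 7648, 6972, 8257 and 7959 in vehicle rats at 168 h. Replicate 3 at 24 h and replicate 5 at 48 h lay within the range of vehicle rats at 48 h. The log2 change over vehicle was 0.60 ± 0.14 at 24 h (1.52-fold, adjusted p = 0.00141) and 0.46 ± 0.13 at 48 h (1.38-fold, adjusted p = 0.00873). Its second probe set rose by 0.65 ± 0.12 (adjusted p = 0.00015) and 0.41 ± 0.11 (adjusted p = 0.00737).

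**Figure D4:**
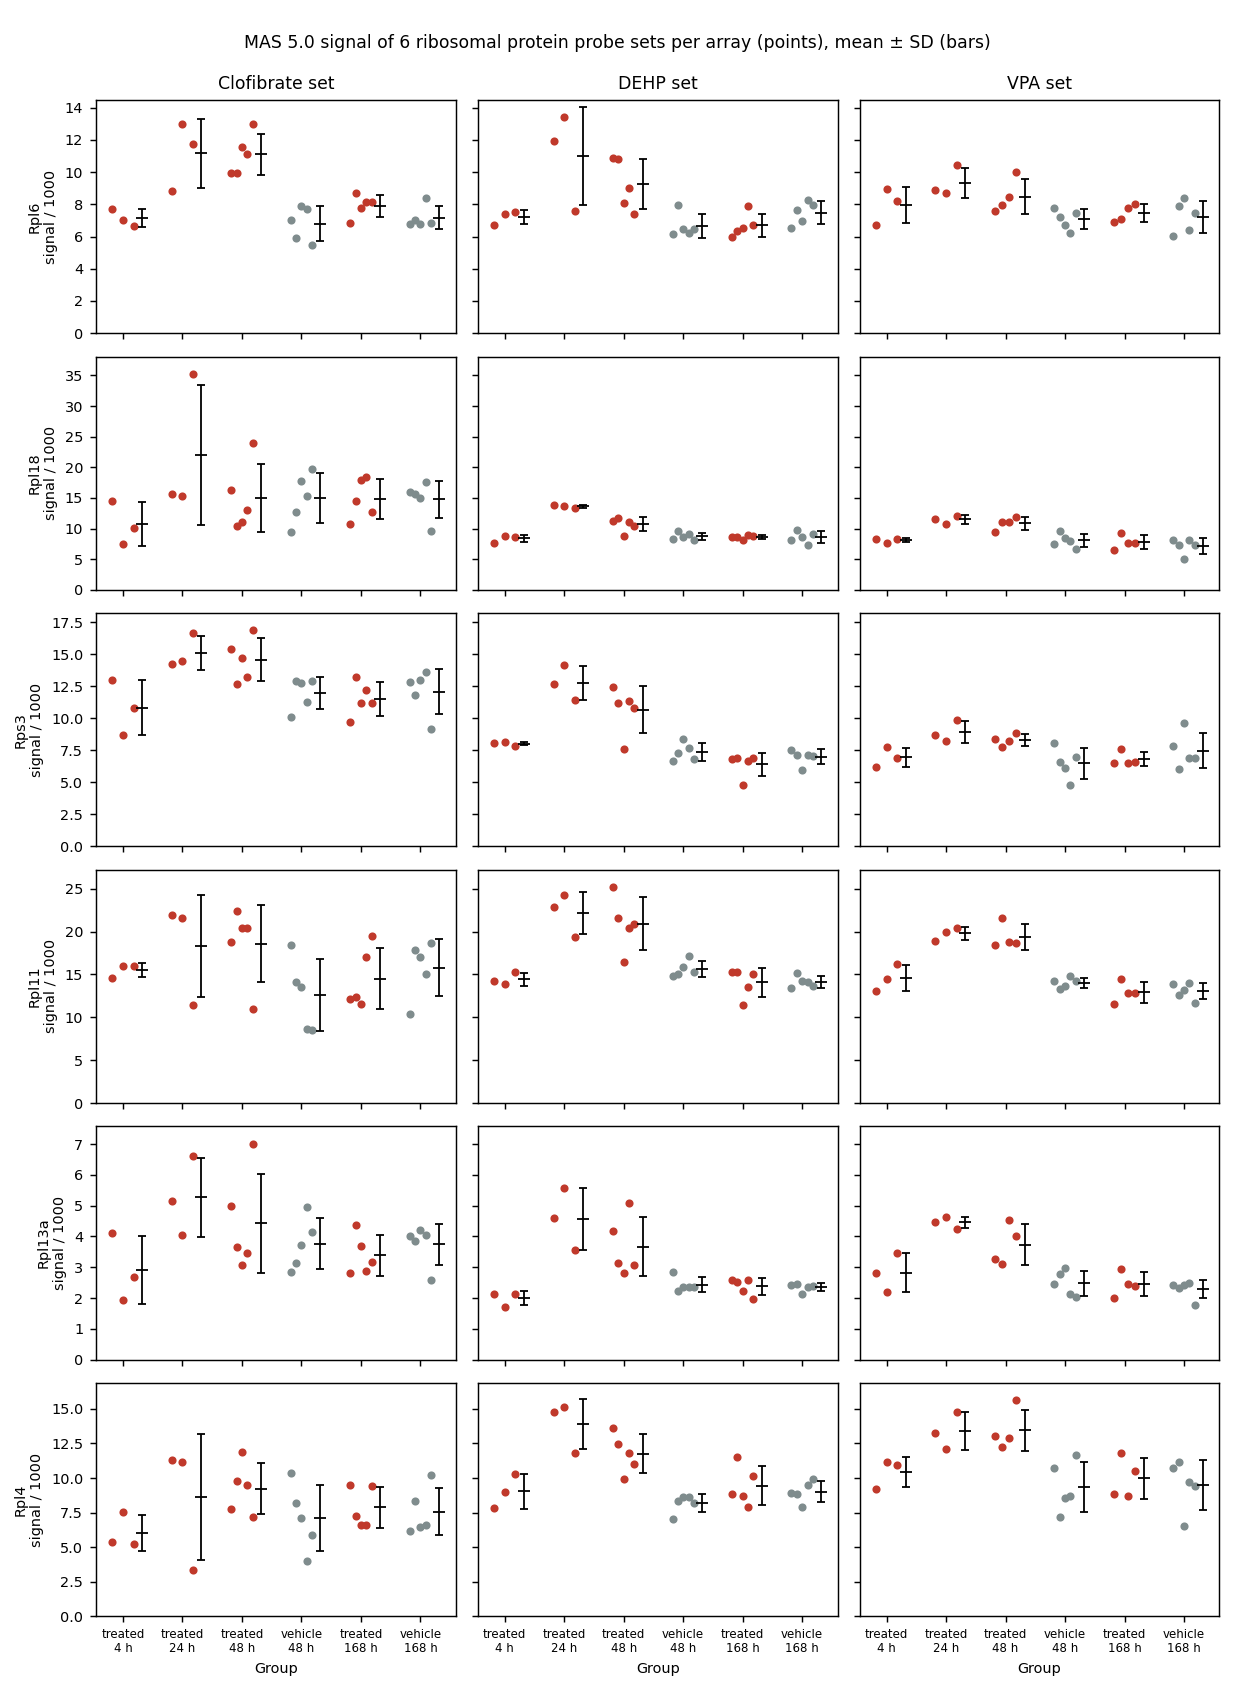
MAS 5.0 signal on each individual array of Rpl6, called in 5 of 12 comparisons, and of the 5 of smallest adjusted p among the 11 ribosomal protein genes called in 4, by compound and group, on a linear axis from 0, with the mean and SD of each group (bars). Signals of DEHP-treated rats at 24 h lie above all vehicle arrays of that set for each gene but Rpl6.

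Other DEHP calls of small adjusted p were Rpl23, Rps6, Rpl3 and Rpl19. Rpl23, a large-subunit protein, gave 23519.7, 24980.1 and 22782 in DEHP-treated rats at 24 h and 27010.0, 19577, 19853, 22597 and 24479 at 48 h, against 15604, 17305, 15849, 15026 and 12963 in vehicle rats at 48 h and 17022, 16013, 16163, 14023 and 16846 at 168 h. All treated arrays of both times exceeded all vehicle arrays. It rose by 0.60 ± 0.09 (adjusted p = 1.58e-05) on the log2 scale at 24 h and by 0.56 ± 0.09 (adjusted p = 2.23e-05) at 48 h. Rps6 is the protein that S6 kinases phosphorylate downstream of mTOR. Its signals were 9175, 8407, 5757, 8674 and 7646 in DEHP-treated rats at 48 h, against 4811, 5663, 5109, 6148 and 4445 in vehicle rats at 48 h, with replicate 3 alone inside the vehicle range. Rps6 rose by 0.69 ± 0.13 (adjusted p = 0.000261) at 24 h and 0.59 ± 0.13 (adjusted p = 0.000895) at 48 h, and its second probe set rose at both times. Rpl3, which lies near the peptidyl transferase centre, rose by 0.54 ± 0.11 (adjusted p = 0.000715) and 0.48 ± 0.11 (adjusted p = 0.00131). Rpl19 rose by 0.47 ± 0.09 (adjusted p = 0.00016) and 0.35 ± 0.08 (adjusted p = 0.00228). Rplp0, the base of the stalk that recruits elongation factors, rose by 0.49 ± 0.10 (adjusted p = 0.000763) and 0.38 ± 0.10 (adjusted p = 0.0044), and it is named here after its values were seen.

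Rps15, a protein of the small-subunit head, was the 1 member that fell after DEHP, and its 3 probe sets disagreed. Probe set rc_AA892895_r_at gave 5648, 5626, 6006, 7282 and 5534 in DEHP-treated rats at 48 h, against 8267, 7658, 8307, 8993 and 8056 in vehicle rats at 48 h, with no overlap, and changed by -0.46 ± 0.11 (adjusted p = 0.00213). The probe set E01534cds_s_at rose by 0.31 ± 0.11 (adjusted p = 0.0274) and the probe set rc_AA892895_i_at by 0.37 ± 0.11 (adjusted p = 0.00961) in the same comparison. The suffix _r marks a probe set for which Affymetrix dropped some of its probe selection rules, and _i one with fewer probe pairs than usual. A fall of the gene cannot be read from 1 of 3 probe sets. Of the 14 genes tested with several probe sets, 8 had all of them called at 24 h after DEHP, 3 some and 3 none. At 48 h the numbers were 5, 5 and 4, with Rps15 the gene of opposite calls.

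Whether single arrays separated was counted beside the calls. At 24 h after DEHP each treated array lay above each of the 10 vehicle arrays for 31 of 57 members, where 10% of all tested probe sets did, and below for 1, where 10.8% did. At 48 h this held above for 6 members, where 8.04% of all did, and below for 1, where 13.6% did, so the share of separated members at 48 h was near that of all probe sets on the upper side and below it on the lower side. Without replicate 3 of the DEHP 48 h group the number of members called was 40, against 29 with it. A fit of all 18 groups, with 1 estimate of spread for the 3 sets, called 17 at 48 h, and it ended the 48 h calls of Rpl18 (adjusted p = 0.307), Rpl11 (adjusted p = 0.059), Rpl3 (adjusted p = 0.373) and rc_AA892895_r_at of Rps15 (adjusted p = 0.0953). Those were the highest adjusted p of these results over all alternatives run.

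With the authors' scaling fewer members were called as rises in VPA-treated than in DEHP-treated rats, and the VPA calls included falls of Rps29. With quantile normalization 27 rose at 48 h after VPA and 26 after DEHP, and shares of all probe sets called there are not given here. Counts of calls alone do not show that the 2 responses differ, and their direct comparison is given below. Rps10, a protein of the small-subunit head, had the smallest adjusted p at 24 h. Rps10 gave signals of 9659.8, 9216 and 10419.6 in VPA-treated rats at 24 h and of 9573, 11767, 8019 and 10832 at 48 h, against 5597, 5689, 4533, 5525 and 6600.4 in vehicle rats at 48 h and 5788, 5956, 6007, 4838 and 4928 in vehicle rats at 168 h. All treated arrays of both times lay above all vehicle arrays. This is a log2 change over vehicle of 0.82 ± 0.12 at 24 h (1.77-fold, adjusted p = 2.24e-05) and 0.84 ± 0.13 at 48 h (1.79-fold, adjusted p = 1.22e-05). Rps27l is a paralog of Rps27 that p53 induces in human cells. Whether its probe set also detects Rps27 was not checked. Rps27l gave signals of 9663, 11013 and 11571 in VPA-treated rats at 24 h and of 11600.5, 11544, 11640.4 and 11646 at 48 h, against 6799.8, 7049.5, 7154, 7766 and 8114 in vehicle rats at 48 h and 8212, 7709, 9416, 7431 and 7109.8 in vehicle rats at 168 h. Treated arrays again lay above all vehicle arrays. On the log2 scale the change over vehicle was 0.49 ± 0.09 at 24 h (1.40-fold, adjusted p = 0.000161) and 0.66 ± 0.09 at 48 h (1.58-fold, adjusted p = 3.82e-06). After DEHP it was not called, with 0.13 ± 0.10 (adjusted p = 0.359) at 24 h and 0.15 ± 0.10 (adjusted p = 0.273) at 48 h. The VPA minus DEHP difference of the responses of Rps27l was 0.36 ± 0.21 (adjusted p = 0.434) at 24 h and 0.51 ± 0.21 (adjusted p = 0.134) at 48 h.

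In the VPA set Rpl11 gave signals of 18932, 19997 and 20420.3 in VPA-treated rats at 24 h and of 18454, 21622, 18806 and 18679 at 48 h, against 14186, 13338, 13614, 14862 and 14183 in vehicle rats at 48 h and 13880.0, 12629, 13175, 14051 and 11661 in vehicle rats at 168 h. No treated array overlapped a vehicle array. The log2 change over vehicle was 0.55 ± 0.08 at 24 h (1.46-fold, adjusted p = 2.58e-05) and 0.46 ± 0.09 at 48 h (1.38-fold, adjusted p = 0.000137). Its second probe set rose by 0.22 ± 0.08 (adjusted p = 0.0385) and 0.30 ± 0.08 (adjusted p = 0.00673). For Rpl13a the set gave signals of 4479, 4634 and 4254 in VPA-treated rats at 24 h and of 3273, 3117, 4527 and 4022 at 48 h, against 2462, 2775, 2963, 2144 and 2029 in vehicle rats at 48 h and 2426, 2316, 2426, 2475 and 1789 in vehicle rats at 168 h. Here too treated and vehicle arrays were separate at both times. This is a log2 change over vehicle of 0.92 ± 0.15 at 24 h (1.89-fold, adjusted p = 5.2e-05) and 0.59 ± 0.15 at 48 h (1.51-fold, adjusted p = 0.00329). The second Rpl13a probe set rose by 0.33 ± 0.11 (adjusted p = 0.0225) at 24 h and was not called at 48 h, with 0.11 ± 0.11 (adjusted p = 0.451).

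Rpl4 in the VPA set gave signals of 13290.3, 12104 and 14809 in VPA-treated rats at 24 h and of 13046, 12216, 12902 and 15616 at 48 h, against 10721, 7180.0, 8561, 8684 and 11670.0 in vehicle rats at 48 h and 10711, 11181, 6538, 9706 and 9402 in vehicle rats at 168 h. Treated arrays were above all vehicle arrays at both times. On the log2 scale the change over vehicle was 0.52 ± 0.15 at 24 h (1.44-fold, adjusted p = 0.00849) and 0.54 ± 0.15 at 48 h (1.45-fold, adjusted p = 0.00684). VPA-set arrays of Rpl18 gave signals of 11624, 10736 and 12075 in VPA-treated rats at 24 h and of 9372, 11059.8, 10992 and 11863 at 48 h, against 7444, 9663, 8475, 8037 and 6684 in vehicle rats at 48 h and 8129.8, 7343, 5023, 8144 and 7244 in vehicle rats at 168 h. The 24 h arrays were above all vehicle arrays, and at 48 h replicate 1 lay within the range of vehicle rats at 48 h. The log2 change over vehicle was 0.61 ± 0.13 at 24 h (1.52-fold, adjusted p = 0.000915) and 0.43 ± 0.13 at 48 h (1.35-fold, adjusted p = 0.0127). For Rps3 the VPA set gave signals of 8652, 8196 and 9872 in VPA-treated rats at 24 h and of 8395, 7763, 8237 and 8821 at 48 h, against 8061, 6586, 6105, 4760.0 and 6939 in vehicle rats at 48 h and 7854, 6072, 9590.1, 6861 and 6923 in vehicle rats at 168 h. Treated arrays at 24 h overlapped the 168 h vehicle arrays, and at 48 h replicate 2 lay within the range of vehicle rats at 48 h. This is a log2 change over vehicle of 0.37 ± 0.13 at 24 h (1.29-fold, adjusted p = 0.0304) and 0.38 ± 0.13 at 48 h (1.30-fold, adjusted p = 0.0288). These were the weakest calls of the 6 genes: without replicate 3 of the VPA 24 h group the 24 h value was 0.29 (adjusted p = 0.16), and without replicate 4 of the vehicle 48 h group the 48 h value was 0.27 (adjusted p = 0.0973). Over all alternatives the adjusted p of Rps3 reached 0.161 at 24 h and 0.0973 at 48 h. Without replicate 3 of the VPA 24 h group Rpl4 was not called at 24 h either, with 0.45 (adjusted p = 0.0616). The second Rps3 probe set was not called, with 0.13 ± 0.11 (adjusted p = 0.349) and 0.06 ± 0.11 (adjusted p = 0.701).

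In VPA-set arrays Rpl6 gave signals of 8892, 8715 and 10425 in VPA-treated rats at 24 h and of 7556, 7958, 8437 and 9978 at 48 h, against 7793, 7189.8, 6697, 6245 and 7479.6 in vehicle rats at 48 h and 6046, 7899, 8403, 6393 and 7456 in vehicle rats at 168 h. The 24 h arrays lay above all vehicle arrays and at 48 h replicate 1 lay within the range of vehicle rats at 48 h. Rpl6 rose by 0.39 ± 0.11 (adjusted p = 0.0103) at 24 h and was not called at 48 h, with 0.26 ± 0.12 (adjusted p = 0.0834). Its second probe set rose at both times, by 0.52 ± 0.12 (adjusted p = 0.0019) and 0.52 ± 0.13 (adjusted p = 0.00177). Rpl7a, a large-subunit protein, rose by 0.65 ± 0.11 (adjusted p = 7.65e-05) and 0.74 ± 0.11 (adjusted p = 1.58e-05). It gave 13342, 16646, 14884 and 18268 in VPA-treated rats at 48 h, against 11524, 8397, 9262, 7979.5 and 10334 in vehicle rats at 48 h, with no overlap. Rpl3 rose by 0.54 ± 0.10 (adjusted p = 0.00015) and 0.47 ± 0.10 (adjusted p = 0.000549), and Rps9, which acts in the accuracy of decoding, by 0.30 ± 0.09 (adjusted p = 0.0116) and 0.46 ± 0.09 (adjusted p = 0.000361). Rps6 rose by 0.54 ± 0.12 (adjusted p = 0.00127) and 0.40 ± 0.12 (adjusted p = 0.0121). Rplp0 was not called, with 0.04 ± 0.09 (adjusted p = 0.769) and 0.09 ± 0.10 (adjusted p = 0.481). Its VPA minus DEHP difference (limma) was -0.45 ± 0.22 (adjusted p = 0.312) at 24 h. At 48 h this difference was -0.29 ± 0.22 (adjusted p = 0.536).

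Rps29, a small zinc-binding protein of the small subunit, was the 1 gene that fell after VPA, on both of its probe sets. Probe set rc_AA965264_at gave 30457, 31902 and 29669.5 in VPA-treated rats at 24 h and 26542, 29460.3, 30233 and 36463 at 48 h, against 42883, 46172, 40662, 45794 and 38418 in vehicle rats at 48 h and 47348, 43181, 42002, 43435 and 37299.8 at 168 h. All treated arrays lay below all vehicle arrays of the comparison. The change was -0.47 ± 0.09 (adjusted p = 0.000167) at 24 h and -0.49 ± 0.09 (adjusted p = 0.000114) at 48 h. Probe set X59051cds_s_at gave 22199, 25981, 24466 and 30079.8 in VPA-treated rats at 48 h, against 34498, 35430.2, 33685, 36454 and 30325 in vehicle rats at 48 h, without overlap, and changed by -0.30 ± 0.10 (adjusted p = 0.0252) and -0.41 ± 0.11 (adjusted p = 0.00306). Neither probe set was called after DEHP, where rc_AA965264_at changed by -0.15 ± 0.08 (adjusted p = 0.133) at 24 h. At 24 h the VPA minus DEHP difference (limma) was -0.32 ± 0.21 (adjusted p = 0.492) for rc_AA965264_at. For X59051cds_s_at it was -0.51 ± 0.26 (adjusted p = 0.341). At 48 h these differences were -0.34 ± 0.21 (adjusted p = 0.384) and -0.47 ± 0.26 (adjusted p = 0.333). A fall specific to VPA is therefore not shown. The VPA call at 24 h depended on scaling, since quantile normalization gave -0.12 (adjusted p = 0.21, the highest of its alternatives) for rc_AA965264_at.

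Each VPA array lay above each vehicle array for 19 of 57 members at 24 h, where 14.6% of all probe sets did, and below for 1, where 9.77% did. At 48 h this held above for 16, where 16.4% did, and below for 2, where 14.5% did. The number of calls at 24 h moved with the scaling: 25 rose and 2 fell with the authors' scaling, 13 and 4 with each array centred on its median, and 29 and 1 with quantile normalization. The median member lay above that of all probe sets by 0.23 with the authors' scaling and by 0.34 with quantile normalization. Centring shifts all probe sets of an array alike and so cannot change this gap. Shares of all probe sets called under the other scalings are not given here. Without replicate 3 of the VPA 24 h group 13 rose and 1 fell, and Rpl6 was not called (0.31, adjusted p = 0.0874). The fit of all 18 groups called 12 at 24 h, and it ended calls of Rpl7a, Rpl3 and Rpl4 at 24 h and of Rpl7a, Rpl3 and Rpl18 at 48 h, with adjusted p of 0.0541 to 0.383. Of the 14 genes with several probe sets, 7 had all called at 24 h, 3 some and 4 none, and at 48 h 3, 8 and 3.

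After clofibrate Rpl6 was the 1 member called, at both 24 and 48 h. Rpl6 gave signals of 8799.9, 12991 and 11729 in clofibrate-treated rats at 24 h and of 9957, 9931, 11586, 11156 and 12987 at 48 h, against 7036, 5907, 7891, 7701 and 5481 in vehicle rats at 48 h and 6757, 7022, 6762, 8418 and 6836 in vehicle rats at 168 h. All treated arrays lay above all vehicle arrays they were compared with. On the log2 scale the change over vehicle was 0.67 ± 0.14 at 24 h (1.59-fold, adjusted p = 0.00188) and 0.72 ± 0.14 at 48 h (1.64-fold, adjusted p = 0.000554). The second Rpl6 probe set was not called, with 0.11 ± 0.21 (adjusted p = 0.809) and 0.41 ± 0.21 (adjusted p = 0.173). In the other 5 genes given array by array, clofibrate changes lay between -0.03 and 0.58 over both times, none called. Most members leaned upward all the same: 50 of 57 changes were above 0 at 24 h and 43 of 57 at 48 h, against 40.5 and 40.9% of all tested probe sets, and 7 and 9 members had an unadjusted p under 0.05, where 25.3 and 31.3% of all did. Replicates varied more in this set, with a median within-group SD of the members of 0.32 on the log2 scale, against 0.17 in the DEHP set and 0.18 in the VPA set. The same SD over all tested probe sets was 0.42, 0.27 and 0.27.

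The 4 arrays of high 3'/5' ratio touch these counts. Without them there were 3 calls at 24 h and 1 at 48 h, and with the ratio as a covariate there were 13 calls at 24 h and 9 at 48 h, all rises. Shares of all probe sets called in these fits are not given here, so the counts do not set the members apart. Without replicate 3 of the clofibrate 24 h group 5 members were called at 24 h. Without replicate 5 of the clofibrate 48 h group 8 were called at 48 h, without vehicle 48 h replicate 1, 6, and without vehicle 48 h replicate 4, 2. Rpl3 shows the spread, since X62166cds_s_at gave 7140.5, 12523, 12779, 9942 and 2007 in clofibrate-treated rats at 48 h, against 9599, 3541, 4151, 1978 and 1304 in vehicle rats at 48 h. Its lowest signals in both groups came from arrays of high ratio, and its change of 1.19 ± 0.57 was not called (adjusted p = 0.151). The part of RNA quality in the clofibrate comparison was not tested beyond these fits.

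At 4 h limma called no member after any compound. An unadjusted p under 0.05 was reached by 3 members after clofibrate, 6 after DEHP and 2 after VPA, of 57 each, where 12.9, 14.8 and 33.8% of all probe sets reached it. After adjustment 3.43, 2.88 and 21.2% of all probe sets were called. The median member change was -0.11, -0.05 and 0.03. Smallest in p were Rpl21 (X15216cds_s_at) with -0.69 ± 0.22 (unadjusted p = 0.00528, adjusted p = 0.109) and Rpl36al1 with -0.69 ± 0.23 (unadjusted p = 0.00542, adjusted p = 0.11) after clofibrate. Replicate 2 stood far below the other arrays of Rpl21, as signals were 4362, 1531 and 4844 in treated rats, against 5447, 5809.7, 5849, 4648 and 4737 in vehicle rats at 48 h and 4082, 5253, 5452, 4944 and 5306 at 168 h. After DEHP they were Rpl17 with 0.58 ± 0.19 (unadjusted p = 0.00657, adjusted p = 0.126) and Rps27l with -0.28 ± 0.10 (unadjusted p = 0.0136, adjusted p = 0.179). After VPA Rps10 and Rps29 were first, with 0.31 ± 0.12 (unadjusted p = 0.0212, adjusted p = 0.081) and -0.20 ± 0.09 (unadjusted p = 0.0341, adjusted p = 0.112). At 4 h after VPA scaling decided the sign of the members against all probe sets, as it did at 168 h after DEHP (0.025 as scaled by the authors and -0.005 with quantile normalization). Their median at 4 h after VPA lay 0.06 below that of all with the authors' scaling and 0.08 above with quantile normalization. Centring cannot change this gap. The median of all was 0.09 with the authors' scaling, -0.05 with centring and -0.01 with quantile normalization.

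At 168 h limma again called no member. Of all probe sets 0% were called after clofibrate, 3.62% after DEHP and 0% after VPA, and 0, 1 and 2 members had an unadjusted p under 0.05, where 2.16, 13.8 and 7.64% of all did. Median member changes were -0.06, -0.01 and -0.04, and per-array levels are given above. Smallest in p were Rpl27a, with -0.24 ± 0.15 (unadjusted p = 0.107, adjusted p = 1), and Rpl23 (X58200mRNA_g_at), with -0.28 ± 0.19 (unadjusted p = 0.149, adjusted p = 1), after clofibrate. After DEHP they were Rpl21 (rc_AA849648_g_at), with -0.30 ± 0.14 (unadjusted p = 0.0423, adjusted p = 0.34), and Rps23, with -0.19 ± 0.10 (unadjusted p = 0.0535, adjusted p = 0.373). After VPA they were Rpl3 (rc_AA892367_i_at), with -0.40 ± 0.12 (unadjusted p = 0.00225, adjusted p = 0.42), and Rpl26, with -0.31 ± 0.11 (unadjusted p = 0.00947, adjusted p = 0.449). Changes between times within a compound were not tested, and early and late comparisons share vehicle arrays.

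Members differed in steadiness. The lowest pooled within-group SD over the 18 groups among tested members was 0.13 on the log2 scale for Rpl21 (M27905_at), 0.14 for Rpl11 (X62146cds_g_at) and 0.15 for Rpl19. Rpl21 (M27905_at) was called in 0 of 12 comparisons, with signals of 6757 to 11444 over all individual arrays. Least steady were Rpl19l4 (SD 0.64), Rpl30 (0.63) and Rpl3 (X62166cds_s_at, 0.58). Rpl19l4 and Rpl30 had mean signals of 1243 and 666, under those of most members, and single arrays at the floor of 150. The 12 tested probe sets with no call were 3 of Rpl21 and 1 each of Rpl19l4, Rpl26, Rpl27, Rpl30, Rpl35, Rpl36al1, Rpl39, Rpl3l and Rpl41, all of the large subunit. Of the 31 genes with a call and a known start, 17 held the pyrimidine run, and of the 6 without a call, 2 of them not tested, 0 did. These are few genes and the split is a description.

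Responses to 2 compounds at 1 time were compared directly, in 6 differences fitted on all 76 arrays, each response taken over the vehicle of its own set. At 24 h limma called no member between clofibrate and DEHP, VPA and DEHP, or VPA and clofibrate, where 2.2, 4.62 and 8.86% of all tested probe sets were called, and 6, 3 and 1 members had an unadjusted p under 0.05, where 13.1, 15.7 and 23.3% of all did. At 48 h none was called between clofibrate and DEHP or between VPA and DEHP, where 2.07 and 7.97% of all were called, and 6 and 4 members had an unadjusted p under 0.05, where 14.1 and 19.7% of all did. The fit of all 76 arrays takes in the clofibrate set, in which replicates varied more. With the arrays of VPA and DEHP only, their difference called 2 members at 24 h, both lower, and 5 at 48 h, 1 higher and 4 lower. Shares of all probe sets called in that fit are not given here. Between VPA and clofibrate at 48 h Rpl36al1 alone was called, as higher, where 7.26% of all were higher and 4.09% lower, with a difference of 0.78 ± 0.25 (adjusted p = 0.031). Rpl36al1 gave 7945, 9645, 7851 and 8543 in VPA-treated rats at 48 h, against 7640.2, 6292, 4840.5, 5428 and 8299.6 in vehicle rats of that set. It gave 13036, 8168, 7993, 8388 and 13576 in clofibrate-treated rats, against 8914, 10327, 14657, 17504 and 14723 in vehicle rats. Neither response was called alone, at 0.41 ± 0.17 (adjusted p = 0.0567) for VPA and -0.37 ± 0.22 (adjusted p = 0.256) for clofibrate, and both pairs of groups overlap. The call on the difference was lost in 13 of its alternatives, among them centring (0.66, adjusted p = 0.119, the highest), no filter and the arrays of the 2 compounds only. The higher count of calls after DEHP than after clofibrate is therefore not shown to be a difference between the compounds for any single member. The median difference of the members was -0.22 for clofibrate minus DEHP and -0.19 for VPA minus DEHP at 24 h, and -0.10 and -0.11 at 48 h. Doses and array sets differ between the compounds, and clofibrate was given in saline where DEHP and VPA were given in distilled water, so the responses are set side by side.

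Ribosomal proteins outside the rule were counted in the same way. Rack1 and Rpsa are small-subunit proteins with other names, and all 3 of their probe sets rose at 24 and 48 h after both DEHP and VPA. Rack1 rose by 0.87 ± 0.12 and 0.50 ± 0.11 after DEHP and by 0.72 ± 0.11 and 0.90 ± 0.11 after VPA, and Rpsa by 0.84 ± 0.14, 0.74 ± 0.13, 0.59 ± 0.12 and 0.54 ± 0.12. Of the ribosomal protein probe sets with several symbols, 22 and 21 of 30 rose at 24 and 48 h after DEHP, 15 and 15 of 30 after VPA and 1 and 2 of 30 after clofibrate. Of mitochondrial ribosomal proteins, which serve the separate ribosomes of mitochondria, 2 and 1 of 14 rose at 24 and 48 h after DEHP, 4 and 4 of 14 after VPA and 0 and 0 of 12 after clofibrate, with no fall at these times. At 4 h after VPA 3 of 14 rose and 4 fell, where 14.4% of all rose and 6.79% fell.

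Other genes of translation are given as lists, read beside the percentages of all probe sets above. Of nucleolar and ribosome assembly genes, 8 and 3 of 18 rose at 24 and 48 h after DEHP, 7 and 4 of 18 after VPA and 0 and 1 of 14 after clofibrate, with no fall, and median changes at 24 h were 0.49, 0.47 and 0.18 for DEHP, VPA and clofibrate. At 4 h, when no member was called, 0 of 18 of their probe sets rose after DEHP, 9 of 18 after VPA and 2 of 14 after clofibrate, with medians of 0.17, 0.44 and 0.52. Ncl, nucleolin, rose by 0.84 ± 0.15 at 24 h after DEHP, and Gnl3, nucleostemin, by 1.12 ± 0.35 after DEHP and 1.18 ± 0.27 after VPA. The same Gnl3 probe set rose at 4 h, by 1.11 ± 0.27 after VPA and 1.89 ± 0.46 after clofibrate. Of 2 other Gnl3 probe sets with calls, rc_AA892598_g_at rose in these 4 comparisons and at 48 h after clofibrate, and rc_AA800679_at fell at 168 h after DEHP, by 0.88 ± 0.22. Of initiation factors and poly(A)-binding proteins, 12 and 4 of 25 rose at 24 and 48 h after DEHP, 10 and 9 of 25 after VPA and 0 and 3 of 22 after clofibrate. Of these genes 1 fell at 48 h after VPA and 1 at 48 h after clofibrate, and at 4 h 0 of 25 rose after DEHP, 8 of 25 after VPA and 0 of 22 after clofibrate. Eif4ebp1, the repressor of cap-dependent initiation that mTOR inactivates, rose by 0.97 ± 0.14, 0.99 ± 0.14 and 0.92 ± 0.14 at 4, 24 and 48 h after VPA, by 0.66 ± 0.17 at 24 h after DEHP and by 0.73 ± 0.17 at 48 h after clofibrate. Of elongation and termination factors, 2 and 3 of 7 rose at 24 and 48 h after DEHP, 1 and 1 of 7 after VPA and 0 and 0 of 7 after clofibrate, among them Eef1g, a subunit of the factor that recharges elongation factor 1A, with 0.40 ± 0.10 at 24 h after DEHP and 0.38 ± 0.10 after VPA. Of other mRNAs known to carry a TOP tract, a list that shares Rack1, Rpsa and elongation factors with those above, 6 and 7 of 15 rose at 24 and 48 h after DEHP, 6 and 6 of 16 after VPA and 1 and 1 of 14 after clofibrate, and 1 fell at 24 h after DEHP. Of S6 kinase and mTOR pathway genes, 2 and 1 of 9 rose at 24 and 48 h after DEHP, 5 and 3 of 11 after VPA and 0 and 3 of 8 after clofibrate, with no fall. Of cell cycle genes, 4 and 1 of 15 rose at 24 and 48 h after DEHP, 8 and 3 of 14 after VPA and 5 and 1 of 15 after clofibrate, and 1 fell at 24 h after DEHP and 2 at 48 h after VPA.

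**Figure D5:**
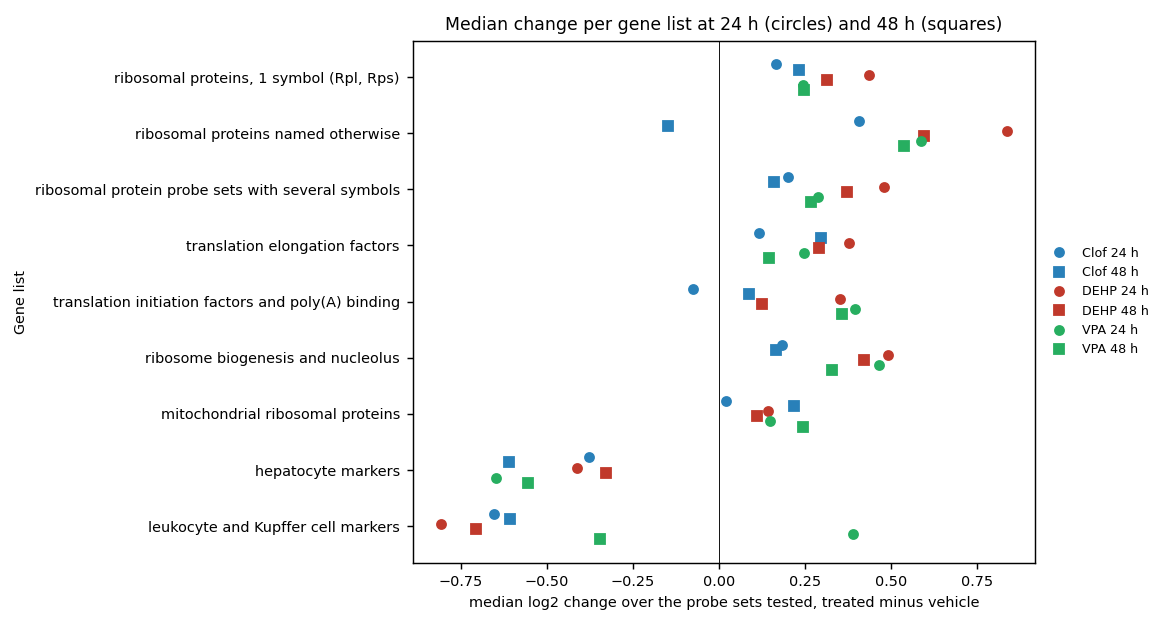
Median log2 change (treated minus vehicle, x axis) over the tested probe sets of each gene list (y axis) at 24 h (circles) and 48 h (squares), with colours for the 3 compounds. Medians of the members lie between 0.17 and 0.44, and those of hepatocyte markers lie between -0.65 and -0.33.

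Cell type markers moved in the same comparisons and also in some where no member was called. At 4 h after VPA 7 of 25 tested hepatocyte marker probe sets fell, where 6.79% of all fell. At 168 h after DEHP 1 of 13 leukocyte and 1 of 14 stellate markers fell, where 1.49% of all fell. Of 25 tested hepatocyte marker probe sets 12 and 12 fell at 24 and 48 h after DEHP, 21 and 19 after VPA and 7 and 13 after clofibrate, with no rise. Their summed signal was 1125578 to 1286462 in DEHP-treated rats at 24 h and 1032709 to 1325326 at 48 h, against 1320186 to 1525739 in vehicle rats at 48 h. In VPA-treated rats it was 697497 to 800737 and 654985 to 865293, against 974524 to 1189366, and in clofibrate-treated rats 1266581 to 1762446 and 1083846 to 1398954, against 1508491 to 1971095. Of leukocyte and Kupffer cell markers, 9 and 7 of 13 fell after DEHP, 1 and 3 of 13 after VPA (1 rose at 24 h) and 3 and 4 of 11 after clofibrate. Their sum was 15840.0 to 18184 and 15548 to 27029 in DEHP-treated rats at 24 and 48 h, against 23505 to 36949 in vehicle rats at 48 h, and 25102 to 34526 and 18634 to 26054 in VPA-treated rats, against 24617 to 36987. Of stellate cell and matrix markers 7 and 11 of 14 fell after DEHP, 5 and 6 of 14 after VPA and 1 and 3 of 10 after clofibrate. Of erythroid markers 0 and 2 of 3 fell after DEHP, 3 and 2 after VPA and 0 and 2 after clofibrate. Endothelial and cholangiocyte markers had at most 3 tested probe sets each, with 1 endothelial fall at each time after DEHP and 1 or 2 cholangiocyte rises in each comparison. The cholangiocyte rises were of Krt8 alone, with Epcam added at 48 h after VPA, so they do not stand for a cell type. Probe sets under the floor of 150 on all arrays of a group numbered 5 to 9 of 24 for the leukocyte list and 5 to 8 of 27 for the stellate list, over the 24 h groups and the treated and vehicle 48 h groups. The part of these markers in the ribosomal protein changes was not tested.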

How the data were processed

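The values are probe set signals of an Affymetrix rat genome array, from 10 µg of total RNA per liver extracted with RNA STAT-60. Per the labels, the authors computed each signal, a linear intensity, with MAS 5.0 and scaled each array to 1500. Scan days, recorded as other text, came from the experiment files deposited by the authors. From there, signals under 150 were set to 150 and log2 was taken of the deposited signals, and 59 control probe sets were dropped. A probe set was tested where its average signal reached 500 in some group of the fit.

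Group means were fitted with limma 3.58.1 (lmFit, eBayes with trend) in R 4.3.3, 1 fit per compound over all tested probe sets, with Benjamini-Hochberg adjustment and calls at an adjusted p under 0.05. The comparator was the time-matched vehicle group at 48 and 168 h. No vehicle group of 4 or 24 h was analysed here, and for these times the average of the 48 h and 168 h vehicle groups, each with the same weight, was used. Response differences used a fit of all 18 groups. Pooled-RNA arrays entered no fit. Scripts were tested on simulated data. Tables and figures used Python 3.11.15, numpy 2.4.6, pandas 2.3.3 and matplotlib 3.10.9.

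Gene symbols came from the platform annotation, and 61 of the 62 members were found in the RefSeq gene table under the same symbol. Members and gene lists were chosen with earlier results of these data known. The text gives 6 genes in full, Rpl6 with 5 calls and, of the 11 genes with 4, the 5 of smallest adjusted p, and names up to 6 called genes per direction and comparison by adjusted p, the 2 of smallest p where none was called, the 3 steadiest and 3 least steady probe sets, and up to 3 genes per list. Alternatives were the scaling, the floor, the filter, the arrays in the fit, a replicate block, scan day as a random block, the 3'/5' ratio as a covariate, the vehicle group and each array left out.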

Additional observations from a re-analysis of the deposited data

Results flagged for a closer look

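Log2 signals of the 6 genes given array by array were searched for single arrays far from the rest of their group, in 84 tests by Dixon's criterion, of which 13 met it, where chance gives about 1 in 20. In the clofibrate set Rpl11 was low at 13.42 in treated 48 h replicate 5 (others 14.20 to 14.45), an array of high 3'/5' ratio. Rpl6 was high at 13.04 in vehicle 168 h replicate 4 (others 12.72 to 12.78). Vehicle 168 h replicate 5 was low for Rpl18 at 13.23 (others 13.87 to 14.11) and for Rpl13a at 11.33 (others 11.91 to 12.04).

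In the DEHP set Rps3 was low at 12.22 in treated 168 h replicate 3 (others 12.70 to 12.75), and Rpl13a was low at 11.05 in vehicle 168 h replicate 3 (others 11.21 to 11.27). Vehicle 48 h replicate 2 was high for Rpl6 at 12.96 (others 12.58 to 12.66). Vehicle 48 h replicate 1 was high for Rpl13a at 11.48 (others 11.12 to 11.21) and low for Rpl4 at 12.79 (the other arrays up to 13.08).

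In the VPA set Rps3 was high at 12.90 in treated 168 h replicate 2 (others 12.66 to 12.69), and Rpl11 was high at 14.40 in treated 48 h replicate 2 (others 14.17 to 14.20). Rpl18 was low at 12.29 in vehicle 168 h replicate 3 (others 12.82 to 12.99), and Rpl13a was low at 10.81 in vehicle 168 h replicate 5 (others 11.18 to 11.27).

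The response of Rpl36al1 at 48 h differed between VPA and clofibrate by 0.78 on the log2 scale (limma, adjusted p = 0.031).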

How the results depend on the processing

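With each array centred on its median, calls among members numbered 2 at 24 h and 2 at 48 h after clofibrate, 3 falls at 4 h and 17 at 24 h after VPA, and 1 fall in the VPA minus clofibrate difference at 24 h. For that difference at 48 h centring gave 0 rises and 1 fall, in place of 1 rise and 0 falls. A fit of all 18 groups gave 3, 6 and 11 at 4, 24 and 48 h after clofibrate, 17 at 48 h after DEHP and 12 at 24 h after VPA. A fit with the 3'/5' ratio as covariate gave 2, 13 and 9 at 4, 24 and 48 h after clofibrate, 1 and 3 in the VPA minus clofibrate difference at 24 and 48 h and 2 in the VPA minus DEHP difference at 48 h. With the arrays of the 2 compounds only, the VPA minus DEHP difference gave 2 at 24 h and 5 at 48 h and the VPA minus clofibrate difference 0 at 48 h. Quantile normalization gave 1 in the VPA minus DEHP difference at 48 h. The VPA minus clofibrate difference at 48 h also gave 0 with no filter and 0 without the 4 arrays of high 3'/5' ratio, which left 3 calls at 24 h after clofibrate. Shares of all probe sets called under these alternatives are not given here, so the counts show only how far the member calls moved. The cause was not tested in any of these.

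Leaving out each array in turn gave 0 to 1, 1 to 5, 1 to 8 and 0 calls at 4, 24, 48 and 168 h after clofibrate, 0 to 1, 28 to 38, 24 to 40 and 0 after DEHP, and 0 to 1, 14 to 28, 18 to 23 and 0 after VPA. Differences gave 0 for clofibrate minus DEHP at both times and VPA minus DEHP at 24 h, 0 to 2 for VPA minus DEHP at 48 h, and 0 to 1 and 0 to 2 for VPA minus clofibrate at 24 and 48 h. Of 43 named results, none turned its direction in 894 alternatives, 39 of which lost the call, and 28 results kept it in each. With the replicate number as a block there were 36 and 29 calls after DEHP and 19 and 19 after VPA at 24 and 48 h. Deviations of arrays that share a number had correlations of -0.455 to 0.549. With so few arrays per group this cannot decide whether the numbers pair animals. Scan day as a random block (correlations of -0.055 to 0.016) left these counts within 1.5 times. Low signals limit Rpl19l4 and Rpl30, and the 5 members not tested have no result.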
